A study of Mus musculus with 8 samples.

Results

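The AP-1 immediate early genes described here are Fos, Fosb, Fosl2, Jun, Junb, Jund and Atf3, chosen by name as Fos, Jun and Atf family members of the AP-1 complex. All 7 were found, each once, among the 25343 genes of the deposited table, and all 7 passed the minimum of 10 normalized counts in at least 4 libraries that 18203 genes passed. RNA came from hair cells of the cochlea, which turn sound into nerve signals, taken from mice of a mixed C57BL/6 and 129 background at postnatal days 4 to 6. There were 4 wild-type libraries and 4 libraries of Ndp KO mice, which lack norrin, a secreted protein that acts through frizzled receptors. Each library came from a tube of 12 to 20 pooled sensory epithelia, which TrypLE took apart before cells were sorted by Atoh1-GFP, a hair cell reporter carried by both genotypes. Means are given ± SD over the 4 libraries of a genotype, wild type first, unless stated otherwise. The sources used here do not give the deleted stretch of Ndp.

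AP-1 is a dimer of proteins with a basic region that holds DNA and a leucine zipper that joins the partners. Jun proteins can pair with themselves or with Fos proteins, Fos proteins need a Jun partner, and Atf3 is a stress-induced member that pairs with Jun proteins. Fos, Fosb, Jun, Junb and Atf3 are classic immediate early genes, whose transcription starts within minutes of growth factor, calcium or stress signals through factors already in the cell and whose RNA decays fast, while Jund is made more steadily. They are widely used as markers of recent stimulation or stress of a cell.

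The cAMP response element, TGACGTCA, and its core, TGACG, are bound by CREB and ATF factors, and the AP-1 site is TGACTCA. The promoter stretches below are shown because they belong to the 5 members with a lower mean in the knockout. Each is the 110 bases before the RefSeq transcript start (GRCm38.p6), 5′ to 3′ on the gene's strand, with TGACG, its reverse complement CGTCA, or the Jun site TGACATCA in capitals.
Fos, chr12:85473780-85473889, plus strand: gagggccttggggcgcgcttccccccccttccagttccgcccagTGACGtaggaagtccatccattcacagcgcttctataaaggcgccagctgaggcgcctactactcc
Fosb, chr7:19310046-19310155, minus strand: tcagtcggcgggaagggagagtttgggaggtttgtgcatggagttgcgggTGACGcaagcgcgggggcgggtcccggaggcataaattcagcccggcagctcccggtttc
Jun, chr4:95052223-95052332, minus strand: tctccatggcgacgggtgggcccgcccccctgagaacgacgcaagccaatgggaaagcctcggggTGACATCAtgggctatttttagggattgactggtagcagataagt
Junb, chr8:84978749-84978858, minus strand: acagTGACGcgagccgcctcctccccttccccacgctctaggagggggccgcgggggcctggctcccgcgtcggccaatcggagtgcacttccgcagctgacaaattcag
Atf3, chr1:191183334-191183443, minus strand: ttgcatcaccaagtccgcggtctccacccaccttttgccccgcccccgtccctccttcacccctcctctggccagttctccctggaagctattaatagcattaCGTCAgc

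All 7 members had an entry in the RefSeq promoter table. Within the 250 bases before the start, on either strand, TGACG occurred in Fos, Fosb, Junb and Atf3, 4 of the 7 members, and in 17.8% of 32851 promoter windows. In Fos it stood at -129 to -125 and at -66 to -62, counted from the transcript start, in Fosb at -60 to -56, in Junb at -106 to -102 and in Atf3 at -7 to -3. Jun alone of the members held TGACATCA, at -45 to -38, which 2.93% of windows hold on either strand. No member held the full TGACGTCA (1.55% of windows), TGACTCA (4.46%) or the CArG box of serum response factor (1.47%), which says only that these letters are not in these windows. For Atf3, Fosl2 and Jund the RefSeq start was 34706, 671 and 1210 bases from the start of the GENCODE gene, so these windows may not be the promoter used in hair cells.

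The 3′ untranslated regions were searched for AU-rich elements, the ATTTA pentamer and the TTATTTATT nonamer, which are known as signals of fast RNA decay. In the longest annotated 3′ region of each gene, counted from its stop codon, Fos held 4 pentamers in 818 bases, Jun 4 in 1236, Junb 2 in 488, Atf3 3 in 1189, Fosb 1 in 2305, Jund 1 in 536 and Fosl2 8 in 4656. Per kilobase these were 4.89 for Fos, 4.10 for Junb, 3.24 for Jun, 2.52 for Atf3, 1.87 for Jund, 1.72 for Fosl2 and 0.434 for Fosb, beside a median of 1.32 over 14442 tested genes. The nonamer was found in 2 members, Fos and Fosl2, and in 8.33% of the tested genes. It is in capitals in the stretches below, which are shown because the nonamer was found in these members alone.
Fos, from the 3′ region of Fos-201: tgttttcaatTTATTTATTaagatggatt
Fosl2, from the 3′ region of Fosl2-201: atttattttaTTATTTATTttaaatgttt

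The libraries held 35077950 to 48329827 reads recovered from the deposited values. Normalized counts of Ndp, the targeted gene, averaged 146 ± 53.2 against 36.2 ± 24.9 (SD, n = 4), with no overlap of the genotypes. Of all tested genes 1.58% lay lower in the knockout without overlap. Ndp itself was not called, with a limma adjusted p of 0.895 (unadjusted 0.00261) and an adjusted p of 0.129 in the authors' deposited table. All 12 hair cell markers were measured, with a summed level of 363875 to 406492 normalized counts per library in wild type and 381204 to 451164 in the knockout. Calb1 alone held 183686 ± 17716 and 191687 ± 13595. Of the 12, 9 had a positive log2 difference, knockout minus wild type, with a median of 0.11 and 0 called by limma. At an unadjusted p under 0.05, 2 were higher and 0 lower, beside 3.10% and 2.47% of all tested genes. Over 19 alternative settings 0 to 3 were higher. The 10 supporting cell markers summed to 192449 to 391641 and 251594 to 325744 normalized counts, so RNA of these markers was measured in every library. Of these markers Tectb alone held 214099 ± 73356 and 179660 ± 27911. In bulk RNA fewer cells of a type and less RNA per cell cannot be told apart. The labels do not say how the tubes relate to litters, so a p-value here speaks of the scatter of these libraries alone, which may be technical.

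Levels of different genes were compared per kilobase of exon. Fos had the highest level of the 7 in both genotypes, with 6377 ± 2184 normalized counts per kilobase in wild type against 3825 ± 1226 in the knockout (SD, n = 4). In wild type Jun followed with 2999 ± 944 and Jund with 2632 ± 294 normalized counts per kilobase, 2 neighbours whose spreads overlapped, and then Junb with 1326 ± 354. Far below these came Atf3 with 116 ± 46.8, Fosb with 46.5 ± 14.8 and Fosl2 with 7.24 ± 2.87 normalized counts per kilobase (SD, n = 4). By the mean level per kilobase over the 8 libraries, Fos stood at percentile 98.0 of the tested genes, Jund at 95.1, Jun at 94.7 and Junb at 88.1, while Fosl2 stood at 8.71. In the knockout the order of the means differed at 1 place: Jund, with 2647 ± 254 normalized counts per kilobase, came before Jun, with 1896 ± 357 (SD, n = 4).

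**Figure D1:**
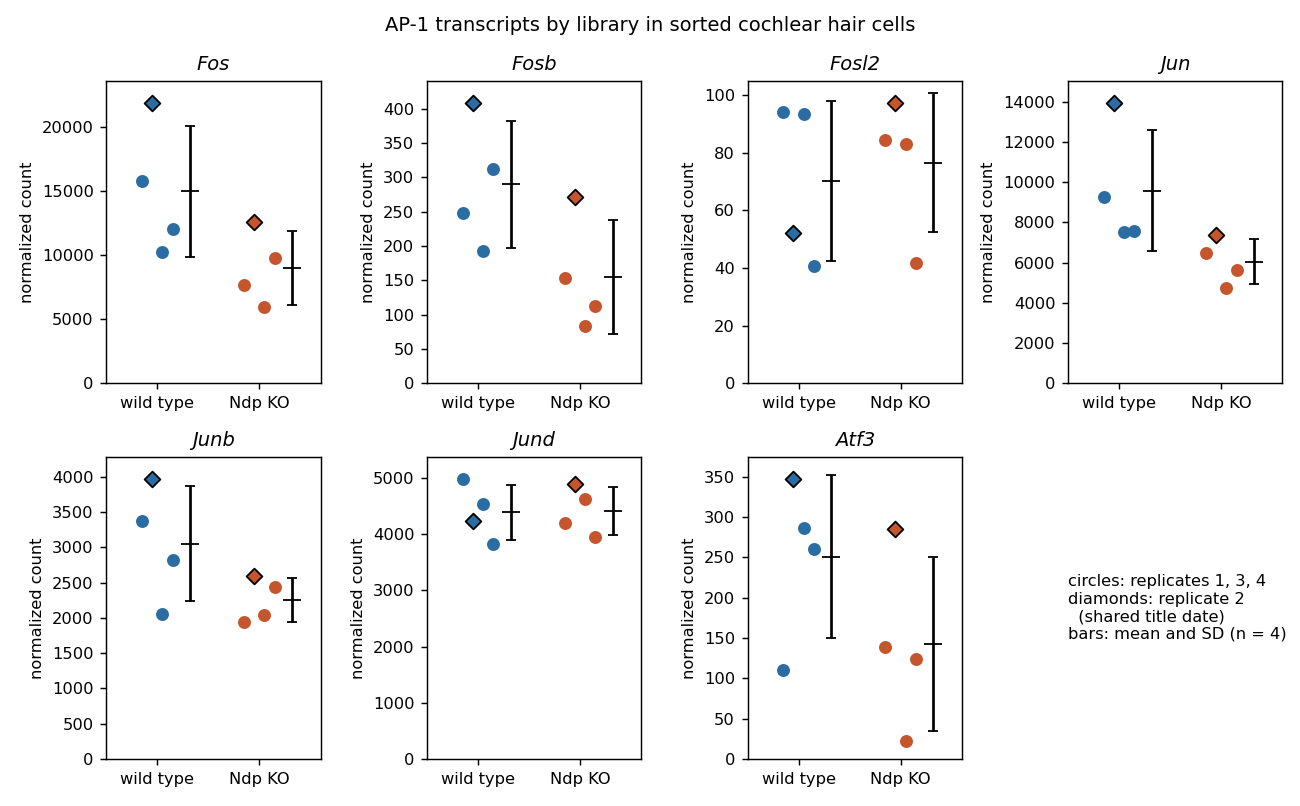
Normalized counts (y axis, linear, from 0) of the 7 AP-1 members in the 4 wild-type and 4 Ndp knockout libraries, with the mean and SD of each genotype (n = 4); diamonds mark replicate 2 of each genotype, whose titles carry the same date. For Jun every knockout point lies below every wild-type point, while the points of Jund share the same range, 3819 to 4978 in wild type and 3946 to 4888 in the knockout.

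The genotypes were compared to ask which genes depend on norrin in hair cells. Jun, which encodes the founding Jun protein (ENSMUSG00000052684, chromosome 4, 95049034 to 95052222, minus strand, mm10, a gene of 1 exon), was the member whose genotypes did not overlap. Jun stood at 9263, 13912, 7514 and 7572 normalized counts in wild-type libraries 1 to 4, and knockout libraries 1 to 4 held 6458, 7384, 4727 and 5620. The highest knockout library lay just under the lowest wild-type library, and wild-type library 2 stood well above the other 7. The mean was 9565 ± 3009 against 6047 ± 1137 (SD, n = 4), a log2 difference of -0.63 (95% interval -1.11 to -0.16). The limma adjusted p of Jun over all 18203 genes was 0.895 (unadjusted 0.0134), so Jun was not called.

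Junb (ENSMUSG00000052837, chromosome 8, 84974484 to 84978718, minus strand) encodes a Jun protein that often restrains Jun. Junb stood at 3368, 3967, 2051 and 2817 normalized counts in wild-type libraries 1 to 4, and knockout libraries 1 to 4 held 1947, 2593, 2045 and 2437. Here 3 wild-type libraries lay above all knockout libraries, and wild-type library 3 lay among them. The log2 difference of Junb was -0.40 (95% interval -0.86 to 0.05), with a limma adjusted p of 0.905. Junb overlaps Prdx2, on the other strand, by 351 bases at the far end of its noncoding transcript Junb-202, and Prdx2 held 21629 to 40570 normalized counts, so reads of that stretch cannot be told apart in these unstranded libraries.

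Jund (ENSMUSG00000071076, chromosome 8, 70698949 to 70700616, plus strand, also 1 exon) encodes the steadily made Jun protein. In library order the wild type held 4978, 4226, 4538 and 3819 normalized counts of Jund, and knockout libraries 1 to 4 held 4197, 4888, 4628 and 3946. The genotypes lay over each other, and the highest library of either was at most 1.30 times the lowest. The log2 difference of Jund was 0.01 (95% interval -0.29 to 0.31), with a limma adjusted p of 0.998, and its sign turned when single libraries were left out. The antisense genes that overlap Jun and Jund, Junos and Gm11175, held at most 49.99 and 33.8 normalized counts in a library.

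Fos, the founding Fos gene (ENSMUSG00000021250, chromosome 12, 85473890 to 85477273, plus strand), had means of 14998 ± 5136 against 8997 ± 2882 normalized counts (SD, n = 4), 0.600 times the wild-type mean. Fos stood at 15822, 21872, 10255 and 12044 normalized counts in wild-type libraries 1 to 4, and knockout libraries 1 to 4 held 7638, 12622, 5944 and 9782. Of the knockout libraries 3 lay below all wild-type libraries, and knockout library 2 lay above 2 of them. The log2 difference of Fos was -0.73 (95% interval -1.33 to -0.13), with a limma adjusted p of 0.895 (unadjusted 0.0209).

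Fosb (ENSMUSG00000003545, chromosome 7, 19302696 to 19310051, minus strand) encodes a Fos protein and its truncated stable form, which gene totals do not separate. Across the 4 wild-type libraries Fosb held 248, 408, 193 and 313 normalized counts, and knockout libraries 1 to 4 held 153, 272, 83.9 and 112. As for Fos, 3 knockout libraries lay below all wild-type libraries and knockout library 2 did not. The log2 difference of Fosb was -0.99 (95% interval -1.84 to -0.13), with a limma adjusted p of 0.895 (unadjusted 0.0279).

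Fosl2 (ENSMUSG00000029135, chromosome 5, 32135801 to 32157842, plus strand), a Fos-related gene known for slower induction, was the scarcest member. Its normalized counts were 94.0, 52.0, 93.6 and 40.7 in wild-type libraries 1 to 4, and knockout libraries 1 to 4 held 84.3, 97.1, 83.005 and 41.8. The genotypes overlapped almost fully, and wild-type library 2, the highest in Fos, was the third lowest in Fosl2. These levels rest on 35 to 120 reads per library. The log2 difference of Fosl2 was 0.15 (95% interval -0.80 to 1.10), with a limma adjusted p of 0.993 and a sign that turned without wild-type library 4.

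Atf3 (ENSMUSG00000026628, chromosome 1, 191170296 to 191218039, minus strand) varied most. Atf3 stood at 110, 347, 286 and 260 normalized counts in wild-type libraries 1 to 4, and knockout libraries 1 to 4 held 139, 284, 21.7 and 124. Wild-type library 1 lay among the knockout libraries, knockout library 2 lay among the wild-type libraries, and knockout library 3 held only 24 reads. The log2 difference of Atf3 was -1.17 (95% interval -2.68 to 0.35), with a limma adjusted p of 0.922. Without knockout library 3 it was -0.44. By edgeR and by DESeq2, over all 8 libraries, the difference was -0.82.

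**Figure D2:**
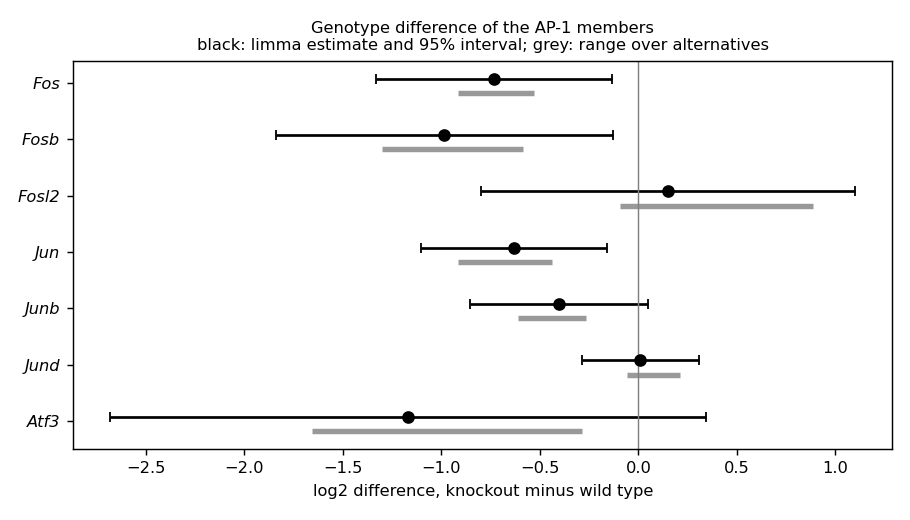
Log2 difference of normalized counts, knockout minus wild type (x axis), for the 7 members (y axis): black points and bars are the limma estimate and its 95% interval over 8 libraries, and grey bars are the range over the alternative settings and left-out libraries. The ranges of Fos, Fosb, Jun, Junb and Atf3 stay below 0, and those of Jund and Fosl2 cross it.

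None of the 7 members was called, where limma called 0.00549% of the 18203 tested genes, 1 gene. At an unadjusted p under 0.05 limma listed 3 members lower in the knockout, Fos, Fosb and Jun, and 0 higher, where 2.47% of tested genes were lower and 3.10% higher at that level. Of the 7 members 5 had a log2 difference below 0, as did 47.5% of tested genes. With reads in edgeR's quasi-likelihood test 0 members were called, beside 0.00% of genes, and 3 were lower at an unadjusted p under 0.05, beside 2.34%. DESeq2 called 0 members, beside 0.136% of genes, and 4 were lower at that level, beside 3.01%. The genotypes did not overlap for 1 of 7 members, Jun, where 1.58% of tested genes lay lower in the knockout without overlap. The median log2 difference of the members was -0.63, beside 0.02 for all tested genes. The authors' deposited table gives an adjusted p of 0.411 for Jun, 0.552 for Fos, 0.700 for Fosb and 0.821 for Junb, the 4 lowest among the members.

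Over alternative settings and left-out libraries Fos, Fosb, Jun, Junb and Atf3 kept a negative difference in all 20 of them. The unadjusted p of Jun stayed under 0.05 in all 19 alternatives with a test, those of Fos and Fosb in 15 each, that of Junb in 2 and that of Atf3 in 1. Without wild-type library 2, the highest library of Jun, its log2 difference was -0.44, and the count of members at an unadjusted p under 0.05 was then 1 in place of 3. That count was also 1 without knockout library 3.

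The same libraries were high in 5 of the members. Wild-type library 2 held the most Fos, Fosb, Jun, Junb and Atf3 of its genotype, and knockout library 2 the most of its own. These 2 libraries share their title date, the only date found in both genotypes. For 5 of 7 members replicate 2 was the highest of both genotypes, where 6.26% of all tested genes showed this. Whether the date, the tube or the tissue set those levels was not tested. Within that pair of libraries the log2 difference, knockout minus wild type, was -0.79 for Fos, -0.59 for Fosb, -0.91 for Jun, -0.61 for Junb and -0.29 for Atf3, against 0.21 for Jund and 0.89 for Fosl2. In the other 6 libraries it was -0.71 for Fos, -1.12 for Fosb, -0.54 for Jun, -0.33 for Junb and -1.46 for Atf3. So the 5 differences were negative both within the date and without it, in 1 pair with no test and in 6 libraries with limma adjusted p of 0.494 to 0.657. With the shared date as a term over all 8 libraries, a fit added after the data were seen, the differences are those given above by construction. The unadjusted p was then 0.00207 for Jun, 0.00331 for Fos, 0.00828 for Fosb and 0.0507 for Junb, and the limma adjusted p of each was 0.914.

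**Figure D3:**
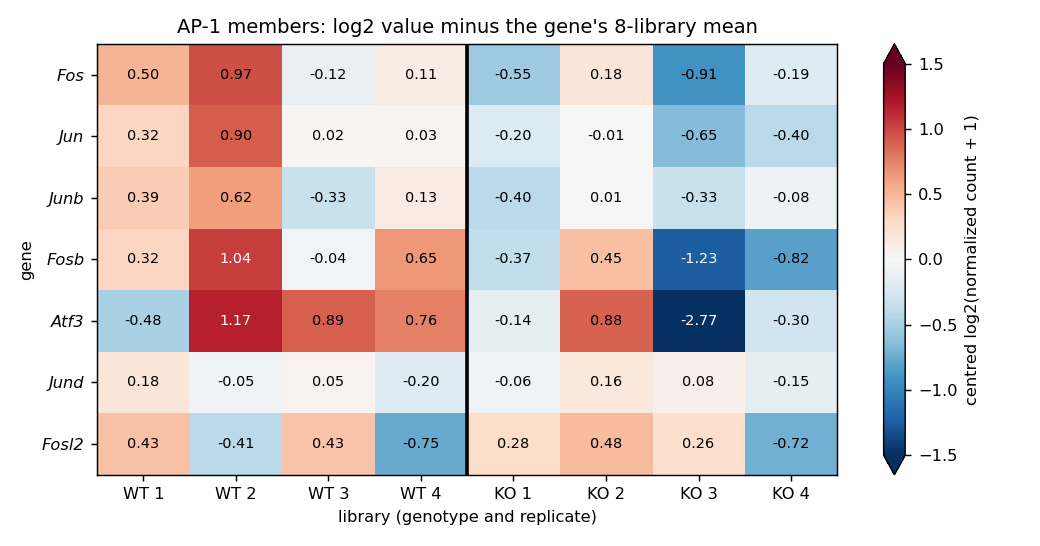
Log2(normalized count + 1) of each member (rows) in each library (columns), minus the gene's mean over the 8 libraries; red is above the mean, blue below, and the black line parts the genotypes. Wild-type library 2 is red for Fos (0.97), Jun (0.90), Junb (0.62), Fosb (1.04) and Atf3 (1.17), and knockout library 3 is blue for the same genes, while Jund stays within 0.20 of its mean.

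The likeness of 2 profiles was measured as the root-mean-square difference of their centred log2 values over the 8 libraries, which is 0 for identical profiles. Fos and Jun were the closest members, at 0.20, followed by Jun and Junb at 0.24, Fos and Junb at 0.27 and Fos and Fosb at 0.34. Fosl2 and Atf3 were the farthest apart, at 1.39. Within a genotype the SD of the log2 value was 0.48 in wild type and 0.47 in the knockout for Fos, and 0.42 and 0.28 for Jun. The median SD over the 7398 genes with a mean of at least 1000 normalized counts was 0.30 and 0.15. Jund, with SDs of 0.16 and 0.14, varied less than those medians. Atf3 had SDs of 0.73 and 1.55, and genes with 50 to 400 normalized counts had medians of 0.58 and 0.46.

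Ratios between members within a library do not depend on how libraries were scaled. The ratio of Fos to Jun per kilobase was 2.32, 2.13, 1.85 and 2.16 in wild-type libraries 1 to 4 and 1.60, 2.32, 1.70 and 2.36 in knockout libraries 1 to 4, so the genotypes overlapped. The ratio of Jun to Jund, chosen after their values were seen and given with no test, was 0.973, 1.72, 0.866 and 1.04 in wild type and 0.805, 0.790, 0.534 and 0.745 in the knockout. Here the genotypes did not overlap, as for Jun alone, and Jund exceeded Jun per kilobase in every knockout library and in 2 wild-type libraries. The ratio of Fos to Jund did overlap, at 1.60 to 3.67 in wild type and 0.911 to 1.83 in the knockout. The ratio of Junb to Jun was 0.448 ± 0.0715 in wild type against 0.526 ± 0.0900 in the knockout (SD, n = 4), with overlap. As a share of the summed level per kilobase of the 7 members, Jund made up 20.3% ± 4.91 in wild type against 28.6% ± 5.27 in the knockout, and Fos 46.5% ± 4.03 and 39.8% ± 5.82 (SD, n = 4 each).

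**Figure D4:**
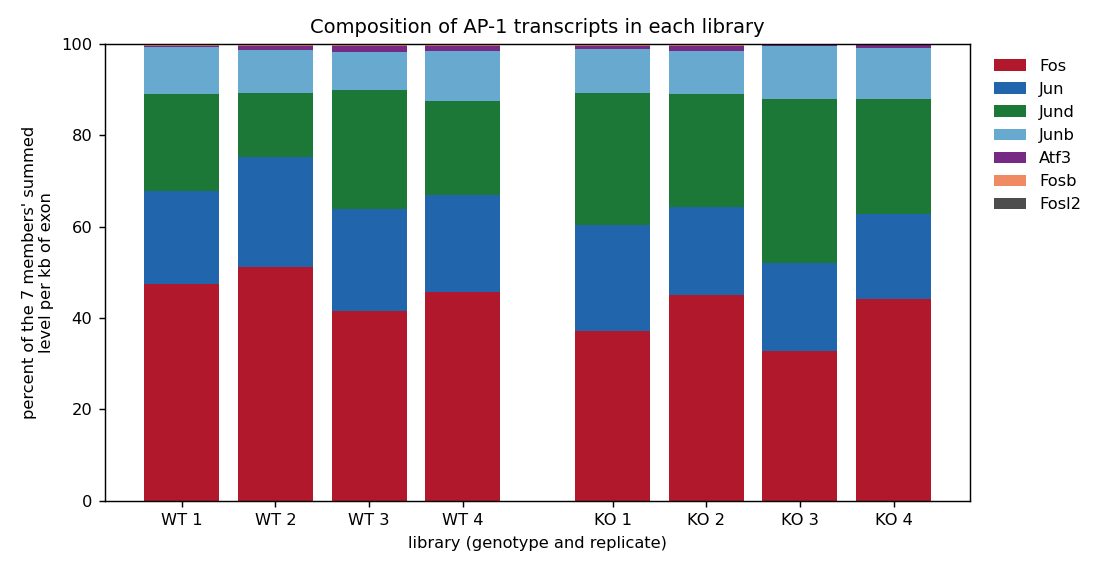
Share of each member in the summed level of the 7 members per kilobase of exon (y axis, percent) in each library (x axis). Fos is the largest share in 7 of the 8 libraries, at 32.8% to 51.2% over all of them; in knockout library 3 Jund, at 36.0%, exceeds it.

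Other subunits of AP-1 had mostly positive log2 differences. Of 12 tested, limma called 0, with 0 at an unadjusted p under 0.05, and the median log2 difference was 0.23, with 8 positive and 4 negative. Fosl1, a Fos-related gene, had only 22.5 ± 12.2 and 25.1 ± 10.3 normalized counts, and Atf2, a partner of Jun, had 1923 ± 624 and 2104 ± 345. Mafg, a small Maf gene, had the lowest p of the list, with 1325 ± 117 and 1062 ± 131 normalized counts and a limma adjusted p of 0.903.

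Other transcription factors were compared as 2 lists. The list called serum response factors held Srf, Elk1, Elk3, Elk4, Mkl1, Mkl2, Ets1 and Ets2. These 8 genes had 0 calls and a median log2 difference of 0.06, with 0 at an unadjusted p under 0.05. Srf itself had 496 ± 75.7 against 382 ± 54.8 normalized counts, with a limma adjusted p of 0.917. The 13 CREB and ATF genes had 0 calls and a median of 0.09. At an unadjusted p under 0.05, where 2.47% of all tested genes were lower, 1 of the 13 was lower. That gene was Atf4, the factor of the integrated stress response, with 2589 ± 404 and 1973 ± 301 normalized counts and a limma adjusted p of 0.895.

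The 25 kinase genes of the MAP kinase cascades that switch on AP-1 had 0 calls and a median log2 difference of 0.06. At an unadjusted p under 0.05 there were 1 higher, Mapk10, and 1 lower, Map3k4, beside 3.10% and 2.47% of all tested genes. Mapk10, which encodes the neuronal Jun kinase, was scarce, with 25.2 ± 26.4 against 159 ± 100 normalized counts, and in the pair of the shared date its log2 difference was -0.73. The 13 scaffolds and phosphatases had 0 calls and a median of 0.14, which was -0.02 without wild-type library 4 and 0.07 without knockout library 3. At an unadjusted p under 0.05 there were 2 higher, Dusp8 and Mapk8ip1, and 1 lower, Dusp6, beside 3.10% and 2.47% of all tested genes. The limma unadjusted p was 0.0475 for Dusp8 and 0.0498 for Mapk8ip1. Over the 19 alternatives 0 to 3 of the list were higher and 1 to 3 lower. In the pair of the shared date the log2 difference was 0.12 for Dusp8 and -0.15 for Mapk8ip1. Dusp8, a phosphatase of stress-activated kinases, averaged 682 ± 167 against 1404 ± 784 normalized counts, and Mapk8ip1, a scaffold of the Jun kinases, averaged 3494 ± 855 against 4773 ± 1036, with a limma adjusted p of 0.895 for both. Dusp6, a phosphatase induced by ERK, had 2212 ± 500 and 1472 ± 242 normalized counts, a limma adjusted p of 0.895 and an unadjusted p of 0.0107. The 13 calcium channel and CaM kinase genes had 0 calls and a median of 0.18, with 0 at an unadjusted p under 0.05.

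The immediate early genes outside AP-1 had lower means in the knockout in most cases. Of 20 tested, 17 had a negative log2 difference, and the median was -0.52 beside 0.02 over all genes. At an unadjusted p under 0.05, where 2.47% of all tested genes were lower and 3.10% higher, 9 of the 20 were lower and 0 higher. Limma called 0 of them, and DESeq2 called 1, Nr4a3. Earlier results on these libraries were known when the list was made, so it is not independent evidence of its direction. Nr4a3 and Nr4a2, orphan nuclear receptor genes, had 376 ± 77.0 and 89.2 ± 23.7, and 168 ± 69.8 and 65.5 ± 30.8 normalized counts, in wild type and knockout. Egr4, a zinc finger factor of the same response, had 193 ± 85.7 and 46.7 ± 23.3. These 3 genes were named for the smallest p of the list, and their genotypes did not overlap. Of the 20 tested, 3 lay lower in the knockout without overlap, beside 1.58% of all tested genes. The limma adjusted p was 0.280 for Nr4a3 and 0.895 for Nr4a2 and Egr4. Over the 19 alternatives the list had 4 to 11 genes lower and 0 higher at an unadjusted p under 0.05, with 4 without wild-type library 2 and 5 without wild-type library 1, knockout library 1 or knockout library 3.

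Genes known as AP-1 targets were split in sign. Of 16 tested limma called 0, and 8 log2 differences were above and 8 below 0, with a median of 0.03. At an unadjusted p under 0.05, 2 were higher and 0 lower, beside 3.10% and 2.47% of all tested genes. Ccnd1, the cyclin D1 gene, had 2402 ± 1200 and 1429 ± 363 normalized counts with a limma adjusted p of 0.909. Ptgs2, the gene of an inducible prostaglandin enzyme, was at 0 in wild-type libraries 1 and 3, which allows up to 3 reads, 3.17 and 2.34 normalized counts, for counting error only. It averaged 32.2 ± 48.3 against 135 ± 100 normalized counts, with a limma adjusted p of 0.895 and, in the pair of the shared date, a log2 difference of -1.23. The 10 genes of AP-1 protein turnover and partners had 0 calls and a median of 0.18, with 0 at an unadjusted p under 0.05.

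Heat shock genes, which tissue dissociation is known to induce beside AP-1, were compared because every library went through the same dissociation and sort. Of 11 tested limma called 0, with 0 at an unadjusted p under 0.05, and the median log2 difference was 0.06. Of the 11 log2 differences 7 were positive and 4 negative. Hsph1, Hspa8 and Hspb1, with the smallest p of the list, had log2 differences of 0.21, 0.18 and 0.34. Their limma adjusted p was 0.927, 0.940 and 0.954. Hspa1a, an inducible heat shock gene, averaged 93.4 ± 59.1 against 95.1 ± 68.7 normalized counts. Over the 19 alternatives the median took both signs for the other AP-1 subunits (-0.036 to 0.31), the serum response factors (-0.085 to 0.13), the scaffolds and phosphatases (-0.020 to 0.18) and the AP-1 targets (-0.096 to 0.12). When the members were transcribed, in the living tissue or during dissociation and sort, cannot be told apart in these data.

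**Figure D5:**
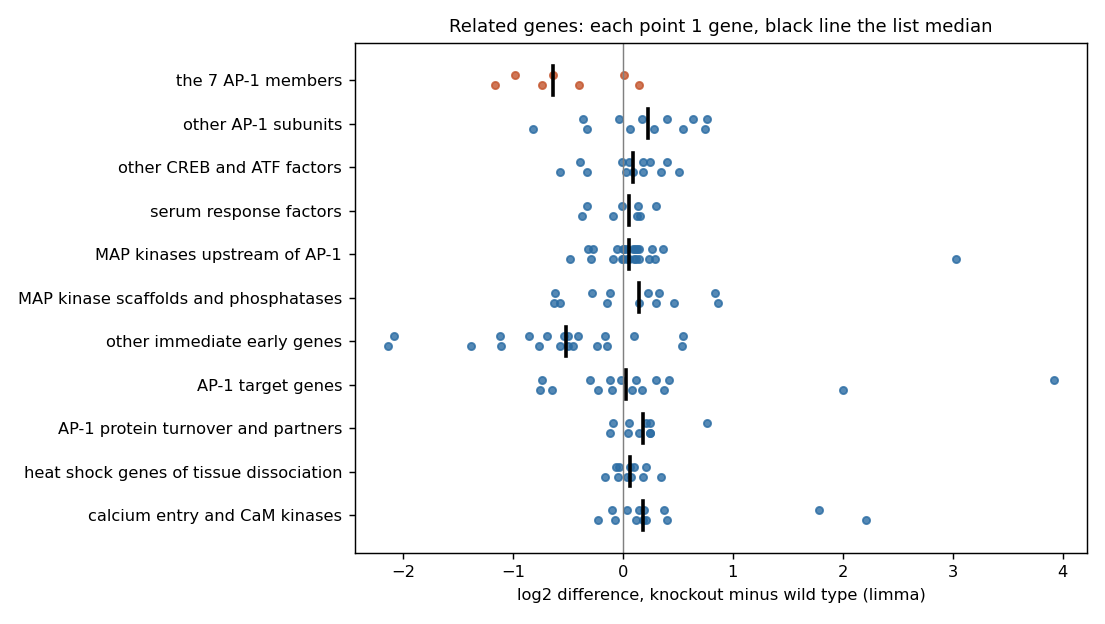
Limma log2 difference, knockout minus wild type (x axis), of each tested gene of the AP-1 members and of 10 related lists (y axis); black lines are list medians. The medians of the AP-1 members (-0.63) and of the other immediate early genes (-0.52) lie below 0, and those of the other 9 lists lie between 0.03 and 0.23.

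The genes whose profile was nearest to Fos were sought among 12925 other tested genes with a mean of at least 100 normalized counts. The nearest 5 by root-mean-square difference over the 8 libraries were Egr1 (0.14), Dusp1 (0.17), Dusp5 (0.19), Cyr61 (0.20) and Hes5 (0.22), where the median gene stood at 0.63 and a gene with no variation at all would stand at 0.55. The 8 libraries include both genotypes, so lower knockout means in these 5 genes follow from the search and are no separate result. Egr1, a zinc finger immediate early gene, had 14773 ± 7038 and 8751 ± 2304 normalized counts, and Dusp1, a MAP kinase phosphatase gene, had 5473 ± 2097 and 3410 ± 904. Their limma adjusted p was 0.895 for both. Hes5, a Notch effector gene and 1 of the supporting cell markers, had 6400 ± 1093 and 3342 ± 1020 normalized counts with an adjusted p of 0.895.

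Markers of other cells were compared in the same libraries, and their part in the AP-1 values was not tested. Of 10 supporting cell markers 8 had a negative log2 difference, with a median of -0.27 and 0 called by limma. At an unadjusted p under 0.05, 3 were lower, beside 2.47% of all tested genes. That median was -0.045 without wild-type library 2, the highest in Fos, -0.44 without wild-type library 3 and -0.092 without both libraries of the shared date. The supporting cell markers summed to 353729, 387620, 192449 and 391641 normalized counts in wild-type libraries 1 to 4. In knockout libraries 1 to 4 they summed to 251594, 325744, 292283 and 294106. Of 12 macrophage markers 11 had a positive log2 difference, with a median of 1.79 and 0 called. At an unadjusted p under 0.05, 5 were higher, beside 3.10% of all tested genes. The summed level of the 12 was 2098 to 5138 normalized counts per library in wild type and 3819 to 6137 in the knockout. Wild-type library 2, highest in Fos, summed to 2111. C1qb, the macrophage marker with the highest mean, had 2043 ± 346 and 2353 ± 312 normalized counts, a log2 difference of 0.21. Lyz2, the next highest, had 302 ± 509 and 620 ± 278. The macrophage median was 1.09 with 2 higher without wild-type library 2, and 2.55 with 9 higher without wild-type library 1. It was 1.009 under library-total CPM, 1.06 by edgeR and 1.081 by DESeq2, and 2 were higher without wild-type library 3 or knockout library 4. The 6 endothelial markers tested had a median of 1.43, or 0.36 under library-total CPM. The 7 endothelial markers found summed to 92.2 to 197 and 189 to 327 normalized counts. The 10 mesenchyme and fibrocyte markers had a median of 0.42. At an unadjusted p under 0.05, 3 were higher and 0 lower, beside 3.10% and 2.47% of all tested genes. These markers summed to 17656 to 24385 and 21464 to 30535. Limma called 0 of them and DESeq2 called 1 higher, Coch, which encodes a matrix protein of cochlear fibrocytes and averaged 203 ± 62.1 against 836 ± 473 normalized counts. The mesenchyme median was 0.15 without wild-type library 4, 0.18 without knockout library 4 and 0.75 without the shared date. The 7 neuronal markers tested had a median of 0.02 and the 6 glial markers 0.31. Sums were 61264 to 70215 and 63463 to 65226 for the 8 neuronal markers found, and 5949 to 12079 and 5505 to 16630 for glia. Most of the neuronal sum was Gata3, at 39863 ± 4141 and 39961 ± 2783 normalized counts, so that sum rests largely on 1 gene. Over the alternatives the medians ranged from 0.0098 to 0.51 for neurons and from -0.25 to 0.63 for glia. Of 6 red blood cell markers 1, Alas2, passed the minimum, and their sum was at most 84.0 normalized counts in any library. No marker in the table was at 0 in all 8 libraries.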

How the data were processed

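RNA of 8 libraries was sequenced from full-length cDNA (SMART-Seq v4, Nextera XT, which does not mark the strand), per the labels' protocols. The deposited signal columns hold the authors' gene counts divided by 1 size factor per library: 100% of 202744 values were whole multiples of the smallest value in their column, within 1e-06, and these multiples are called reads. Among tools the submitters' processing notes list Salmon 0.14.2, DESeq2 1.26.0 and bcl2fastq 2.20, with no roles, and the build mm10. The file also holds the authors' p-values and log2 fold changes, whose headers are those of DESeq2 output.

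The main test was limma 3.58.1 (R 4.3.3) with an intensity trend on log2(normalized count + 1), two-sided, over 18203 genes with at least 10 normalized counts in at least 4 libraries, adjusted by Benjamini-Hochberg and called at 0.05. The added 1 draws log2 differences of low genes toward 0, but this scale did not always give the smaller difference. For Atf3 it gave -1.17, where edgeR and DESeq2 both gave -0.82. edgeR 4.0.16 and DESeq2 1.42.0 on the reads, pseudocounts of 0.1 and 5, other filters and scalings, each left-out library and the shared title date were the alternatives. Scripts were tested on simulated data. Genotypes are as labelled, and numbers of replicates, given in order of accession, pair nothing. No 2 libraries agreed within sampling noise. Exon lengths and overlaps came from GENCODE (mm10), whose coordinates of the members equal those deposited.

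Genes set to be named were the 7 members, Ndp, up to 3 genes of each related list with the smallest p, 5 genes nearest to Fos and 2 genes of each marker list with the highest mean. Not all of the list and marker genes so set are given in the text. Fosl1, Atf2, Hspa1a and Coch, and the overlapping Prdx2, Junos and Gm11175, fall outside this rule and were picked with their values in view. The members and lists were chosen with earlier results of these data known.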

Additional observations from a re-analysis of the deposited data

Results flagged for a closer look

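In groups of 4 libraries, 1 library stood far from the other 3 in 8 of 116 groups, over the 58 genes set to be named, where chance alone gives about 1 in 20. None was a group of the 7 AP-1 members or of Ndp. The Dusp5 level of 546 normalized counts in knockout replicate 2, the library highest in Fos in its genotype, compares with 265 to 299 in the other 3. Knockout replicate 2 also stood apart in Nfatc3, at 1828 against 3290 to 3350, and in Nefl, at 18617 against 14076 to 14784. Knockout replicate 4 stood apart in Dusp6, at 1832 against 1330 to 1395, and in Map3k4, at 795 against 1097 to 1158. Knockout replicate 3 held 444 normalized counts of Lgals3 against 52.7 to 88.0, and knockout replicate 1 held 2855 of Itch against 2254 to 2332. Wild-type replicate 1 held 1061 normalized counts of Lyz2, a macrophage gene, against 4.68 to 121.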

How the results depend on the processing

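The labels give no replicate numbers, and a block with a level for each title date would leave no residual degrees of freedom, since 1 date is shared. A single term for the shared date, added after seeing the data, called 0 members and 0 genes by limma, with 961 genes at an unadjusted p under 0.05, where the fit without it has 1014. No alternative called a member, and Fos, Fosb, Jun, Junb and Atf3 kept their negative sign in each. The log2 differences of Jund and Fosl2 reversed: without both libraries of the shared title date they were -0.057 and -0.096, and over the fits that each left out 1 library they ranged from -0.055 to 0.072 and from -0.076 to 0.41. Within the pair of that date they were 0.21 and 0.89. Fosl2 had too few reads for the minimum of 5 CPM. Limma called 1 gene over all genes. The count was 0 with a pseudocount of 0.1, a CPM minimum, library-total CPM, edgeR or without the shared date, 3 without the trend, 34 by DESeq2, and 0 to 2 with 1 library left out. Of the related lists DESeq2 called 1 gene, Nr4a3, where limma called 0. The cause was not tested. With gene span for length, the wild-type level of Junb was 720 per kilobase in place of 1326. Few reads limit Fosl2, at 35 to 120 per library, and Atf3 in knockout replicate 3, at 24, without which the Atf3 difference was -0.44. Intervals cover only the spread between these libraries.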
